A study of Mus musculus with 12 samples.

Results

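The genes described are the Eif family, which encodes the eukaryotic translation initiation factors. They were taken by name: symbols beginning with Eif1 to Eif6, without the eIF2 kinase genes Eif2ak1 to Eif2ak4 and without pseudogenes, and with a mean of 1 CPM (counts scaled to the library total) or more over 12 libraries. This gave 48 genes of 71 matching symbols, out of 16945 genes tested and 53762 symbols in the table. The rule uses names and the mean level only, but the family was picked for description with earlier results of these data known. Of the 23 symbols left out by level, 20 had no count in any library, among them Eif2s3y, and the most abundant was Eif4ebp3 with 8 to 28 counts.

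The RNA was that of T cells from mouse spleen, kept in co-culture with cells the labels call Res, and the series concerns cancer cells and fatty acid binding proteins. The partner cells were either Res_ctrl, here the control partner, or Res_shFabp7, here the shFabp7 partner, whose name refers to a short hairpin RNA against Fabp7. T cells were taken after 24 or 48 h with either partner, which made 4 groups of 3 libraries, and the design text asks which genes of the T cells change with the partner. Every group had been in co-culture, and no group of T cells kept alone, strain, age, T cell subset or method of separating the cells is used here. The labels do not say what Res stands for, how many hairpins or clones were used, or whether the 3 libraries of a group are independent cultures or mice. The p-values therefore reflect the spread among these libraries alone, and that spread may be technical.

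Translation of most messenger RNAs begins when the eIF4F complex, made of the cap-binding protein eIF4E, the scaffold eIF4G and the helicase eIF4A, brings the small ribosomal subunit to the 5′ cap. The small subunit carries eIF1, eIF1A, the many-subunit eIF3, and eIF2 with the initiator tRNA, and eIF2B recharges eIF2 with GTP after each round. The proteins eIF5 and eIF5B complete start codon recognition and the joining of the large subunit, and T cells are known to raise protein synthesis strongly when they are activated.

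Several members carry in their promoters the E-box CACGTG, a motif bound by basic helix-loop-helix factors such as Myc, and examples from members that rose together at 48 h show it in context. The sequences are from RefSeq on build GRCm38.p6, run 5′ to 3′ on the strand of the gene, and the capitals mark the motif, which reads the same on both strands. Windows reached from 250 bases before to 50 after an annotated start, 300 bases in all, and positions count from that start. Eif4g1, the main eIF4G scaffold, held the motif at -54 (chr16:20672653-20672698, plus strand), and Eif4a1, the main eIF4A helicase, at -189 (chr11:69672587-69672632, minus strand). Eif4e, the cap-binding protein, held it at -228 (chr3:138527020-138527065) and at -64 (chr3:138527184-138527229), both on the plus strand. Eif4h, which stimulates eIF4A, held it at -96 (chr5:134639480-134639525, minus strand), and Eif5a, an elongation and termination factor, at -74 (chr11:69921435-69921480, minus strand). Further sites, not printed, lay 15 bases after the start in Eif4g1 and at -178 in Eif5a.
Eif4g1 at -54: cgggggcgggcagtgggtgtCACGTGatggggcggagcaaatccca
Eif4a1 at -189: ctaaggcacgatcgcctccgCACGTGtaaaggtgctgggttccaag
Eif4e at -228: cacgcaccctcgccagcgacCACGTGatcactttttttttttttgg
Eif4e at -64: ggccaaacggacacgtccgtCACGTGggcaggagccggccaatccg
Eif4h at -96: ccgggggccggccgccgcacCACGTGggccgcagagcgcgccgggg
Eif5a at -74: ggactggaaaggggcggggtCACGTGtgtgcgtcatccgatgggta

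Promoter windows were found for 38 of the 48 members, and 10 of them (26.3%) held the motif. Over all symbols in the promoter table the share was 8.09% (2187 of 27025). Among the members that rose with the shFabp7 partner at 48 h it was 6 of 28 (21.4%), and among the members that did not pass the test there it was 4 of 10 (40%), so the share within the family was no higher among the genes that rose. A match describes letters in a window and not a bound site.

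Library totals reached from 31952873 to 40638685 counts, and mitochondrial transcripts took 0.902 to 1.18% of them. No replicate pair was as close as counting noise alone allows (the chi-square divided by its degrees of freedom was 4.34 to 14.4). Fabp7 was targeted in the partner cells, so T cell RNA does not check the knockdown, and the table held 0 Fabp7 counts in 3 of the groups and 1 to 3 in the control partner group at 48 h. The 12 listed T cell markers were all present, with a summed level of 3830 to 4000 CPM (control partner) and 3800 to 3980 CPM (shFabp7 partner) at 24 h and 2890 CPM in each control library and 2860 to 2960 CPM at 48 h. Of these 12 markers, 1 rose with the shFabp7 partner at 24 h, and 1 rose and 4 fell at 48 h. Over all genes, 6.22% rose at 24 h, and 19.9% rose and 11.6% fell at 48 h. The sum covers opposite moves with time. With the control partner, Cd4 had 14594 to 17010 counts at 24 h and 21045 to 21951 at 48 h. Cd8a had 11972 to 12411 and 6071 to 6374 counts, and Cd8b1 5864 to 6400 and 3747 to 3943. These 3 genes moved in the same directions with the shFabp7 partner. Summed markers of other cells were low but moved with partner or time in some lists. The 4 epithelial markers summed to 10.8 to 11.9 CPM and 9.48 to 10.3 CPM at 24 h, and to 6.23 to 6.98 CPM and 4.1 to 5.25 CPM at 48 h. For the 4 neutrophil markers the ranges were 2.58 to 4.55 and 1.94 to 3.01 CPM at 24 h, and 2.62 to 5.21 and 0.998 to 2.33 CPM at 48 h. The 6 monocyte and macrophage markers gave 13.6 to 15.5 and 11.4 to 12.6 CPM at 24 h and 15.5 to 17.6 and 14.8 to 16.2 CPM at 48 h, and the 4 dendritic cell markers 9.1 to 11.1 and 9.04 to 10.1 CPM at 24 h and 23.7 to 27.8 and 23.8 to 25.3 CPM at 48 h. The 6 B cell markers lay between 11.1 and 22.5 CPM in all libraries, the 3 fibroblast markers between 1.11 and 4.03 CPM, and the NK cell and erythroid lists at 1.61 CPM or less. No listed marker was at 0 in every library, and the part of these cells in the results was not tested. In bulk RNA, fewer cells of a type and less RNA per cell cannot be told apart.

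Together the 48 members took 1.56 ± 0.04% of all counts with the control partner at 24 h and 1.68 ± 0.02% with the shFabp7 partner (SD, n = 3). At 48 h they took 1.16 ± 0.002% and 1.33 ± 0.004%. The share was thus lower at the later time with either partner and higher beside shFabp7 cells at both times, without overlap of libraries. Per kilobase of exon, so that genes can be ranked, Eif4a1 stood highest with the control partner at 24 h (686 ± 61.8 CPM per kilobase), followed by Eif5a (627 ± 14.1) and by Eif1, the start codon scanning factor (380 ± 15.6). Eif4a1 and Eif5a did not differ beyond their spread. The 12 eIF3 subunits other than eIF3j lay between 158 and 271 CPM per kilobase, the eIF2B subunits between 11.9 (Eif2b3) and 47.2 (Eif2b5), and the lowest member was Eif5a2 at 4.24 ± 0.24.

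At 48 h, the median change with the shFabp7 partner was above 0 in every role group. Of the 48 members, 33 rose, 1 fell and 14 did not pass the test, where over all genes 31.6% passed, 19.9% upward and 11.6% downward. The median log2 fold change of the members was 0.27, against 0.01 over all genes tested. Changes were modest: 3 members that rose reached 1.5-fold, Eif3b, Eif4g1 and Eif3j2, and 9 of the 33 stayed under 1.2-fold. The groups did not overlap for 36 members, as against 44.0% of all genes. Upward calls were also common among abundant genes at large. Of the 2312 genes in the middle range of the members' own abundance, 45.9% rose and 10.7% fell (median 0.12), which is given as a description. Under upper-quartile scaling or library totals 28 members rose and 3 fell.

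**Figure D1:**
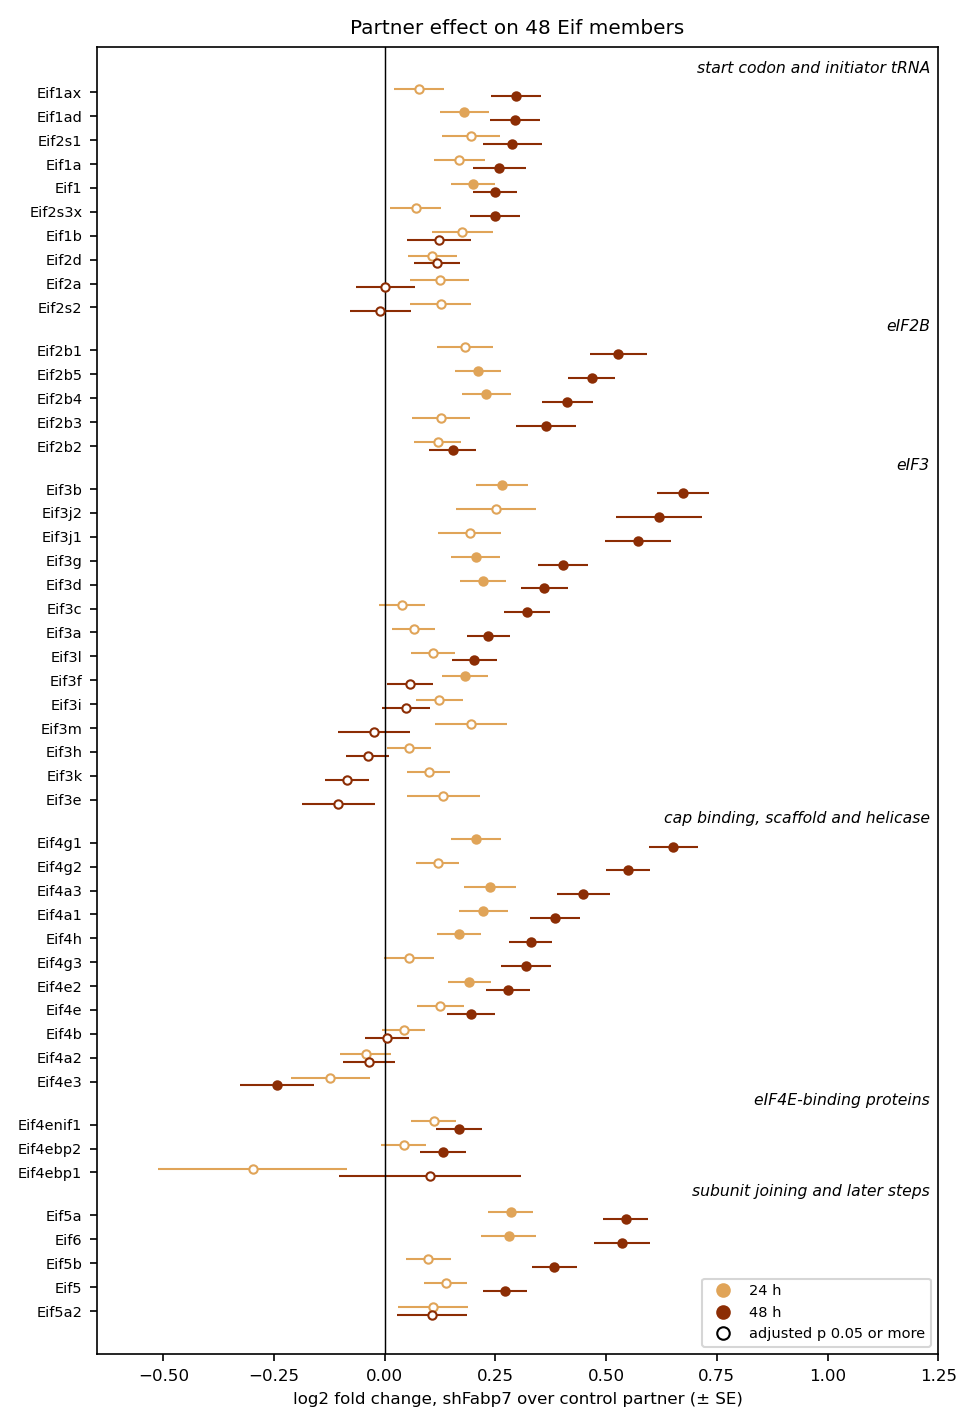
Log2 fold change ± SE between the shFabp7 and the control partner (x axis) for each of the 48 members (y axis, by role), at 24 h (light) and 48 h (dark), with filled points where the adjusted p was under 0.05. At 48 h, 33 members lie to the right with filled points and Eif4e3 alone lies to the left with one, and at 24 h 15 filled points lie to the right and none to the left.

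Among the factors of start codon selection and initiator tRNA, 6 of 10 rose at 48 h (median log2 fold change 0.25). They were Eif1 and its partners in scanning Eif1a and Eif1ax, together with Eif2s1 and Eif2s3x, the alpha and gamma subunits of eIF2. The other was Eif1ad, an eIF1A-domain gene placed in this group by its name. Eif1ax showed the largest fitted change of them at 0.30 ± 0.06 (adjusted p = 1.08e-04). Its libraries read 81.7, 88.9 and 82.4 CPM with the control partner and 107.7, 103.1 and 99.96 CPM with the shFabp7 partner, so the groups lay apart. Eif2s1, whose protein is the target of the eIF2 kinases, read 118.0, 136 and 142 CPM against 158, 169 and 157 CPM and rose by 0.29 ± 0.07 (adjusted p = 0.00138). The beta subunit Eif2s2 did not pass the test, at -0.01 ± 0.07 (adjusted p = 0.935), so the 3 subunit transcripts of eIF2 did not all pass. Eif2a, a separate initiator tRNA factor, stood at 0.00 ± 0.07 (adjusted p = 0.995), and Eif2d, which acts in recycling and reinitiation, at 0.12 ± 0.05 (adjusted p = 0.0808).

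All 5 subunits of eIF2B, the exchange factor that the integrated stress response restrains, rose at 48 h (median 0.41). Eif2b1, the alpha subunit, read 31.6, 32.05 and 28.4 CPM with the control partner and 42.3, 45.7 and 44.8 CPM with the shFabp7 partner, a log2 fold change of 0.53 ± 0.06 (adjusted p = 8.81e-08). Eif2b5, the catalytic epsilon subunit, read 65.4, 62.6 and 59.6 CPM against 83.4, 88.9 and 87.2 CPM and rose by 0.47 ± 0.05 (adjusted p = 2.89e-08). In both genes every shFabp7 library lay above every control library. The delta and gamma subunits Eif2b4 and Eif2b3 rose by 0.41 ± 0.06 and 0.36 ± 0.07 (adjusted p = 8.67e-07 and 8.24e-05). The beta subunit Eif2b2 had the smallest change, 0.15 ± 0.05 (adjusted p = 0.0244), and its call was lost in 13 of 19 alternative analyses, with adjusted p up to 0.354.

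Of the 14 eIF3 genes, 8 rose at 48 h and 6 did not pass the test (median 0.22). Eif3b, which with Eif3g and Eif3i forms the part of eIF3 that reaches the decoding side of the small subunit, had the largest change of the family. Its libraries read 291, 254 and 240.1 CPM with the control partner and 409.9, 412 and 430 CPM with the shFabp7 partner, a rise of 0.67 ± 0.06 (1.59-fold, adjusted p = 1.76e-10). The groups were far apart, and control replicate 1 was the highest of its group. Eif3j1 and Eif3j2 are near-identical genes for the loosely bound eIF3j subunit, so reads may have been divided between them. Eif3j1 read 19.5, 23.5 and 24.9 CPM against 36.5, 33.2 and 31.3 CPM (0.57 ± 0.07, adjusted p = 2.63e-07). Eif3j2 read 8.12, 7.72 and 10.2 CPM against 14.2, 13.3 and 12.4 CPM (0.62 ± 0.10, adjusted p = 6.38e-06). Both rose to a like degree with no overlap.

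The eIF3 subunits were also set out by their place in the complex, a split known from its structure and not drawn from these data. The 8 subunits of the structural octamer (Eif3a, Eif3c, Eif3e, Eif3f, Eif3h, Eif3k, Eif3l and Eif3m) had a median change of 0.02 at 48 h, and Eif3c (0.32 ± 0.05, adjusted p = 9.39e-06), Eif3a (0.23 ± 0.05, adjusted p = 3.14e-04) and Eif3l (0.20 ± 0.05, adjusted p = 0.00203) were the 3 that rose. The other 6 genes (Eif3b, Eif3d, Eif3g, Eif3i, Eif3j1 and Eif3j2) had a median of 0.49, and all but Eif3i (0.05 ± 0.05, adjusted p = 0.551) rose. That median counts Eif3j1 and Eif3j2 separately, although their reads may have been divided between them. Eif3d, which can itself bind the cap of some messenger RNAs, rose by 0.36 ± 0.05 (adjusted p = 1.83e-06) and Eif3g by 0.40 ± 0.06 (adjusted p = 1.06e-06). Eif3e, Eif3h, Eif3k and Eif3m had fitted changes below 0, between -0.10 and -0.02, and none passed. Under upper-quartile scaling and under library totals, Eif3h and Eif3k passed downward and Eif3l no longer passed (adjusted p up to 0.0705). This comparison between the eIF3 genes was not tested as such.

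Because it is formed inside each library, the ratio of the summed level of the 6 other subunits to that of the octamer, both per kilobase, does not depend on scaling between libraries. It was 0.414, 0.382 and 0.374 with the control partner at 48 h and 0.470, 0.462 and 0.482 with the shFabp7 partner, without overlap. At 24 h it was 0.516, 0.543 and 0.542 against 0.592, 0.558 and 0.561, again apart but higher as a whole. Over the 12 subunits other than eIF3j, the highest and lowest levels differed 1.72-fold with the control partner at 24 h (Eif3h at 271 and Eif3a at 158 CPM per kilobase). At 48 h they differed 3.5-fold (Eif3h at 311 and Eif3b at 88.9), and with the shFabp7 partner 1.7-fold at 24 h and 2.31-fold at 48 h. The transcripts of this one complex were thus less even at 48 h than at 24 h, and most uneven with the control partner at 48 h.

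**Figure D2:**
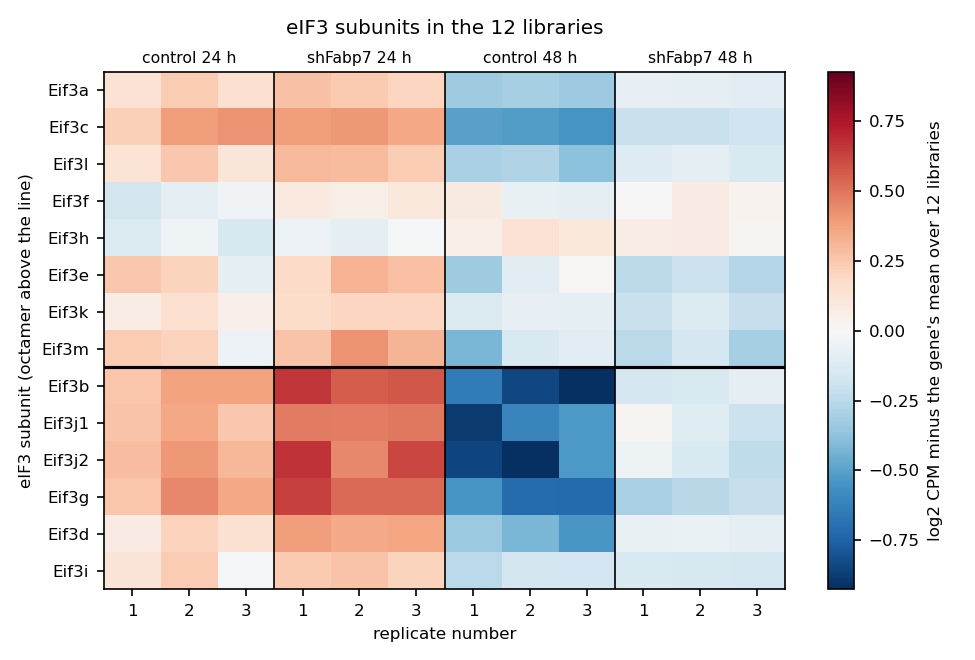
Levels of the 14 eIF3 genes (y axis, octamer subunits above the line) in the 12 libraries (x axis, replicate number by group), coloured by log2 CPM minus the mean of the gene over all libraries. By group mean, all genes below the line are lowest with the control partner at 48 h and highest with the shFabp7 partner at 24 h. The octamer genes Eif3a, Eif3c and Eif3l show the same order, while Eif3f and Eif3h vary little.

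The cap-binding, scaffold and helicase group had 8 members that rose and 1 that fell of 11 at 48 h (median 0.32). Eif4g1 read 594, 514 and 505 CPM with the control partner and 828, 838 and 868 CPM with the shFabp7 partner, a rise of 0.65 ± 0.06 (1.57-fold, adjusted p = 1.40e-10). Eif4g2, a relative of eIF4G that lacks the eIF4E-binding region, read 616, 609 and 605 CPM against 888, 890.3 and 898 CPM (0.55 ± 0.05, adjusted p = 3.59e-10). Both scaffolds were clearly apart, and the 3 libraries of a group lay close together for Eif4g2. Eif4g3, the less abundant eIF4G paralog, read 239.7, 210.3 and 200.3 CPM against 269, 265 and 277 CPM and rose by 0.32 ± 0.06 (adjusted p = 3.93e-05). Its control replicate 1 was the highest of its group, as it was for Eif4g1.

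The 3 eIF4A genes differed. Eif4a1 read 534, 556 and 554 CPM with the control partner at 48 h and 706, 722 and 719.6 CPM with the shFabp7 partner (0.38 ± 0.06, adjusted p = 1.74e-06). Eif4a3, the helicase of the exon junction complex, read 118, 104 and 95.9 CPM against 145, 145 and 144 CPM (0.45 ± 0.06, adjusted p = 3.36e-07). Both rose without overlap. Eif4a2, the paralog of Eif4a1, read 265, 298 and 322 CPM against 292, 288 and 283 CPM, overlapping throughout, and stood at -0.04 ± 0.06 (adjusted p = 0.686). Of the cofactors of eIF4A, Eif4h rose by 0.33 ± 0.05 (adjusted p = 2.69e-06), whereas Eif4b stood at 0.00 ± 0.05 (adjusted p = 0.956).

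Among the cap-binding genes, Eif4e read 86.5, 91.0 and 96.2 CPM against 104, 106 and 103 CPM at 48 h (0.19 ± 0.05, adjusted p = 0.00549). Eif4e2, whose product binds the cap without recruiting eIF4G, read 76.4, 73.6 and 73.7 CPM against 88.2, 90.04 and 93.1 CPM (0.28 ± 0.05, adjusted p = 4.06e-05). Both lay apart, although the call of Eif4e was lost under upper-quartile scaling and library totals (adjusted p up to 0.128). Eif4e3, an atypical cap-binding paralog, was the one member that fell. It read 25.8, 23.4 and 26.0 CPM with the control partner and 20.5, 20.6 and 22.4 CPM with the shFabp7 partner, a log2 fold change of -0.24 ± 0.08 (adjusted p = 0.0226). The groups did not overlap, but the call was lost without control replicate 1 or 3 or without shFabp7 replicate 1 or 2 (adjusted p up to 0.0898).

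The eIF4E-binding proteins compete with eIF4G for eIF4E. Eif4ebp2 rose by 0.13 ± 0.05 (adjusted p = 0.0471), a call lost in 15 of 19 alternatives, and read 312, 278 and 279 CPM against 307, 318 and 326 CPM with overlap. Eif4enif1, whose product carries eIF4E into the nucleus and to processing bodies, rose by 0.17 ± 0.05 (adjusted p = 0.0115), a call lost in 4 alternatives, among them those without control or shFabp7 replicate 3 (adjusted p up to 0.232). Eif4ebp1 read 40.5, 40.7 and 39.8 CPM against 42.6, 44.2 and 43.0 CPM. Its groups did not overlap at 48 h, yet its change was 0.10 ± 0.21 (adjusted p = 0.765). It did not pass in any of 19 alternatives (adjusted p 0.304 or more). The SE rests on 1 estimate of the gene's spread over all 4 groups. The SD was 0.47 CPM (control partner) and 0.82 CPM (shFabp7 partner) at 48 h, but 13.7 and 3.68 CPM at 24 h.

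Of the 5 factors of subunit joining and later steps, 4 rose at 48 h (median 0.38). Eif5a, whose protein carries the unusual amino acid hypusine, read 771, 712 and 729 CPM with the control partner and 1071, 1067 and 1088 CPM with the shFabp7 partner (0.54 ± 0.05, adjusted p = 7.67e-10). Eif6, which holds the large ribosomal subunit apart until it is mature, read 97.5, 80.6 and 77.3 CPM against 118, 126 and 127 CPM (0.54 ± 0.06, adjusted p = 1.37e-07). Both groups were apart, with control replicate 1 highest among the controls. Eif5b, the GTPase of subunit joining, and Eif5, the GTPase activator of eIF2, rose by 0.38 ± 0.05 and 0.27 ± 0.05 (adjusted p = 4.61e-07 and 5.35e-05). Eif5a2, the second eIF5A gene, stood at 0.11 ± 0.08 (adjusted p = 0.336).

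**Figure D3:**
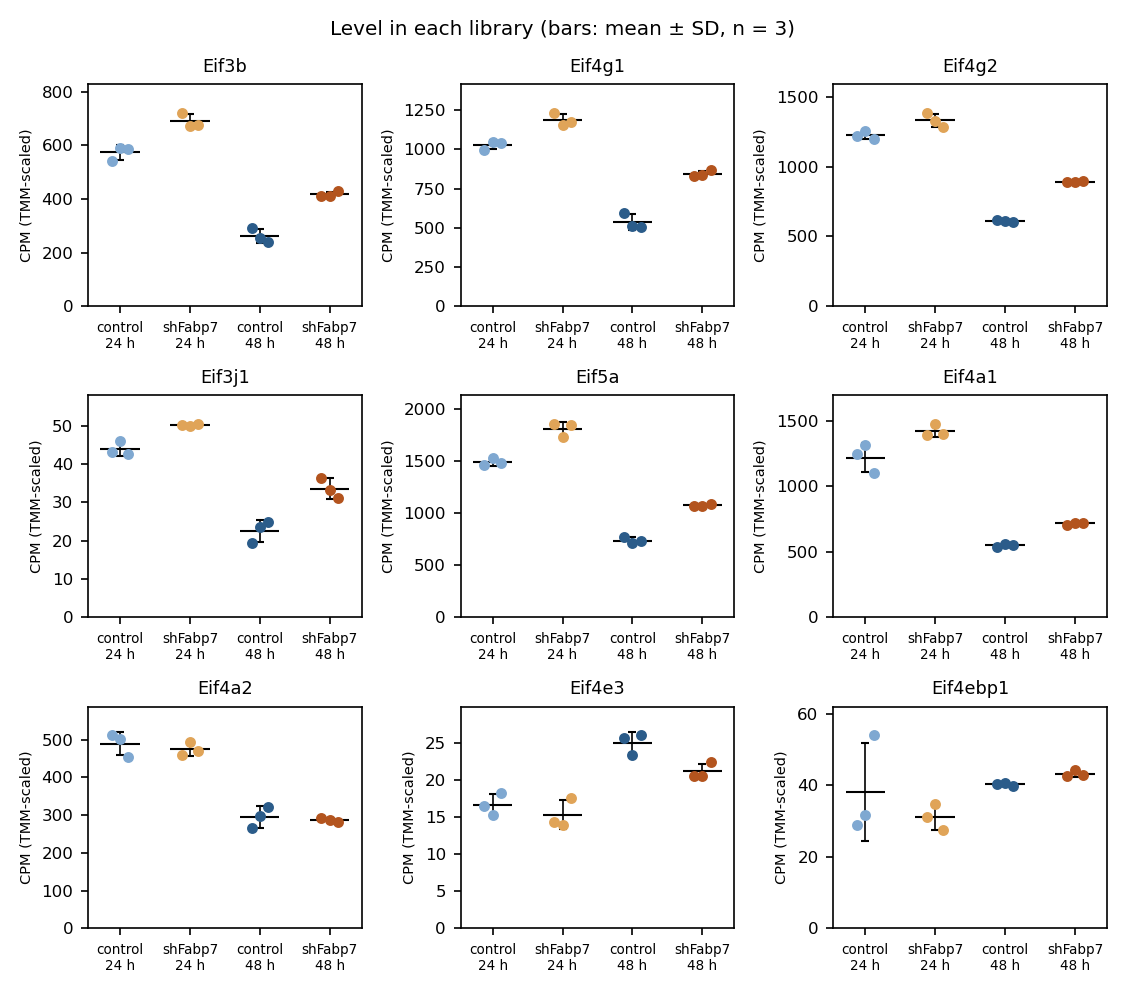
CPM (TMM-scaled, y axis from 0) of 9 members in each of the 12 libraries by group (x axis), with bars at the mean ± SD of the 3 libraries. For Eif3b, Eif4g1, Eif4g2, Eif3j1, Eif5a and Eif4a1 the control partner at 48 h is the lowest group, Eif4a2 does not separate by partner, Eif4e3 is higher at 48 h, and 1 control library of Eif4ebp1 at 24 h reads 54.0 CPM.

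At 24 h, 15 of the 48 members rose with the shFabp7 partner and none fell, where over all genes 10.9% passed, 6.22% upward and 4.65% downward. Of the 2312 genes of like abundance, 15.1% rose and 8.04% fell (median 0.04). The members' median was 0.13, against -0.004 over all genes, and 45 of 48 fitted changes were above 0. Groups did not overlap for 29 members, as against 27.5% of all genes. By role, the members that rose were 5 of 11 in the cap-binding, scaffold and helicase group, 4 of 14 in eIF3, 2 of 10 in start codon selection, 2 of 5 in eIF2B, 2 of 5 in subunit joining and 0 of 3 eIF4E-binding proteins. The largest change was that of Eif5a, which read 1460, 1526 and 1482 CPM with the control partner and 1853, 1736 and 1851 CPM with the shFabp7 partner (0.28 ± 0.05, adjusted p = 5.31e-04). Eif6 read 166, 185 and 180.3 CPM against 218, 214 and 213 CPM (0.28 ± 0.06, adjusted p = 0.00413). Eif3b read 543, 591 and 589 CPM against 719.6, 672 and 678 CPM (0.26 ± 0.06, adjusted p = 0.0031). In all 3 genes every shFabp7 library lay above every control library.

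The other members that rose at 24 h were Eif1, Eif1ad, Eif2b4, Eif2b5, Eif3d, Eif3f, Eif3g, Eif4a1, Eif4a3, Eif4e2, Eif4g1 and Eif4h, by 0.17 to 0.24. Eif4a1 read 1242, 1313 and 1098 CPM against 1393, 1471 and 1399 CPM (0.22 ± 0.06, adjusted p = 0.00797). Its relative Eif4a3 read 170.1, 186 and 184 CPM against 219, 202 and 216 CPM (0.24 ± 0.06, adjusted p = 0.00711). For Eif4g1 the values were 996, 1050 and 1043 CPM against 1229, 1157 and 1177 CPM (0.21 ± 0.06, adjusted p = 0.0142). These groups were apart, with smaller gaps than at 48 h. Eif4a2 again did not pass, at -0.04 ± 0.06 (adjusted p = 0.705), with 511, 501 and 454 CPM against 460.4, 493 and 469 CPM. The count of members that rose at 24 h was 29 without control replicate 2 and 23 without control replicate 1 of the 48 h group, and it was 23 under RLE scaling, 24 without the filter on low counts and 30 with DESeq2. Under upper-quartile scaling and with library totals it was 12, and Eif1ad, Eif3f and Eif4h lost their calls. Without control replicate 1 the calls of Eif1ad, Eif3f, Eif3g, Eif4g1 and Eif4h were lost, and without shFabp7 replicate 1 all of these but Eif3f (adjusted p up to 0.122).

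The 24 h and 48 h comparisons of the partner share no library. Of the members that rose, 14 rose at both times, which is 93.3% of the 24 h calls and 42.4% of the 48 h calls. All 14 had the larger fitted change at 48 h, but for only 4 of them (Eif2b5, Eif3b, Eif4g1 and Eif5a) did the difference between the times pass. The median of that difference was also above 0 over all genes (0.04) and over genes of like abundance (0.09). Over all genes, 873 rose at both times, 82.8% of the 1054 that rose at 24 h and 25.8% of the 3380 that rose at 48 h. The exception among the members that rose at 24 h was Eif3f, an octamer subunit. It rose at 24 h (0.18 ± 0.05, adjusted p = 0.0233) and stood at 0.06 ± 0.05 (adjusted p = 0.447) at 48 h. The difference between its 2 partner effects did not pass (-0.12 ± 0.07, adjusted p = 0.388), so it is an exception by calls only.

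The change of the partner effect from 24 to 48 h, fitted as an interaction, passed for 10 members, all upward, where 5.60% of all genes passed, 4.43% upward and 1.17% downward. Among the 2312 genes of like abundance 14.7% passed upward and 0.865% downward (median 0.09), beside 20.8% of the members. The median over the members was 0.12, against 0.04 over all genes. Eif4g2 had the smallest adjusted p. At 24 h it read 1220, 1255 and 1199 CPM with the control partner and 1380, 1327 and 1285 CPM with the shFabp7 partner (0.12 ± 0.05, adjusted p = 0.113), so the partner effect grew by 0.43 ± 0.07 (adjusted p = 3.54e-04). For Eif4g1 the effect grew by 0.45 ± 0.08 (adjusted p = 6.88e-04) and for Eif3b by 0.41 ± 0.08 (adjusted p = 0.00254). These 3 calls held in all 18 alternatives. Eif5b read 260.3, 284 and 274 CPM against 296, 282 and 297 CPM at 24 h, with overlap, and 164, 155 and 153 CPM against 215, 199 and 202 CPM at 48 h, without overlap. Its effect grew by 0.28 ± 0.07 (adjusted p = 0.015).

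The remaining members with a larger effect at 48 h were Eif3j1 (0.38 ± 0.10), Eif2b1 (0.35 ± 0.09), Eif3c (0.28 ± 0.07), Eif5a (0.26 ± 0.07), Eif2b5 (0.26 ± 0.07) and Eif4g3 (0.26 ± 0.08), with adjusted p between 0.0175 and 0.0436. Eif4g3 lost its call in 15 of 18 alternatives, Eif5a and Eif2b5 in 14 each, Eif3j1 in 9, Eif2b1 in 8, and Eif3c and Eif5b in 7 each. No member of the start codon group and no eIF4E-binding protein passed. The count of 10 depended on single libraries: it was 3 without any 1 of the shFabp7 libraries at 24 h, 4 or 5 without a control library at 24 h, 6 without any 1 shFabp7 library at 48 h and 18 without control replicate 1 at 48 h, of which 15 were upward and 3 downward. It was 4 under upper-quartile scaling, 3 upward and 1 downward, and without the filter on low counts 2 of 9 were downward. Eif3k, an octamer subunit, passed downward in 5 of 18 alternatives.

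Between 24 and 48 h most members fell with either partner. With the control partner 40 of 48 fell, 3 rose and 5 did not pass (median -0.59, against 0.04 over all genes), where over all genes 67.7% passed, 35.8% upward and 32.0% downward. With the shFabp7 partner 39 fell, 2 rose and 7 did not pass (median -0.50, against 0.06 over all genes), where over all genes 66.1% passed, 35.9% upward and 30.2% downward. Genes of like abundance also fell more often than they rose: of the 2312, 62.3% fell and 20.1% rose with the control partner (median -0.24), and 54.6% fell and 24.6% rose with the shFabp7 partner (median -0.17). Time groups did not overlap for 42 and 44 members, as against 68.6% and 71.4% of all genes. With the control partner 8 members fell by more than 1 on the log2 scale, and with the shFabp7 partner 0 did. That count depends on the cut-off, since Eif4a1 stood at -0.99 with the shFabp7 partner, and it was not taken over all genes. Of these 8 members, only Eif3b, Eif4g2 and Eif5a passed the interaction test. The time comparisons share libraries with the partner comparisons, so their values are given side by side and not as separate evidence.

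The largest decrease with the control partner was that of Eif4a1, from a mean of 1218 ± 109 CPM to 548 ± 11.9 CPM (SD, n = 3), a log2 fold change of -1.15 ± 0.06 (adjusted p = 1.00e-18). Eif3b followed at -1.13 ± 0.06 (adjusted p = 5.04e-18). Eif3j2 read 17.8, 19.3 and 18.1 CPM at 24 h and fell by 1.08 on the log2 scale (SE 0.10, adjusted p = 5.02e-12). With the shFabp7 partner the same 3 genes stood at -0.99 ± 0.06, -0.73 ± 0.06 and -0.72 ± 0.09. Eif5, Eif6, Eif5a, Eif4g2 and Eif3g were the other members below -1 with the control partner. In each of these genes all 48 h libraries lay under all 24 h libraries of the same partner.

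A few members went the other way. Eif2d read 63.4, 70.7 and 63.5 CPM with the control partner at 24 h and 118.0, 118 and 114 CPM at 48 h (0.83 ± 0.05, adjusted p = 1.78e-15). It rose as much with the shFabp7 partner, from 70.02, 71.8 and 71.2 CPM to 121, 128 and 131 CPM (0.84 ± 0.05, adjusted p = 1.39e-15). Eif4e3 read 16.5, 15.4 and 18.3 CPM with the control partner at 24 h, and 14.4, 13.9 and 17.6 CPM with the shFabp7 partner. By 48 h it had risen by 0.59 ± 0.08 and 0.46 ± 0.09 (adjusted p = 2.37e-07 and 1.87e-05). Eif3h, an octamer subunit, rose from 346, 366 and 340.1 CPM to 394, 413 and 402 CPM with the control partner (0.20 ± 0.05, adjusted p = 5.21e-04). With the shFabp7 partner it stood at 0.11 ± 0.05 (adjusted p = 0.0521). Eif5a2 and Eif4ebp1 passed in none of the 5 comparisons.

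By role, the decrease with the control partner was deepest in the median of the joining factors (-1.01, 4 of 5 fell), then eIF2B (-0.79, 5 of 5), the cap-binding, scaffold and helicase group (-0.65, 10 of 11), start codon selection (-0.62, 8 of 10), eIF3 (-0.49, 12 of 14) and the eIF4E-binding proteins (-0.06, 1 of 3). With the shFabp7 partner the medians were -0.75, -0.61, -0.49, -0.56, -0.47 and -0.00 in the same order. TMM factors were 0.926 to 0.963 at 24 h and 1.02 to 1.10 at 48 h, so scaling moved with time. With library totals alone the members' medians over time were -0.40 and -0.36, with 34 and 32 members falling, and the median of all genes moved to 0.23 and 0.21. The factors also differed by partner: 0.951 to 0.963 (control) against 0.926 to 0.934 (shFabp7) at 24 h, and 1.08 to 1.10 against 1.02 to 1.04 at 48 h. For the partner, the members' median with library totals was 0.09 at 24 h (0.13 with TMM) and 0.18 at 48 h (0.27 with TMM).

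**Figure D4:**
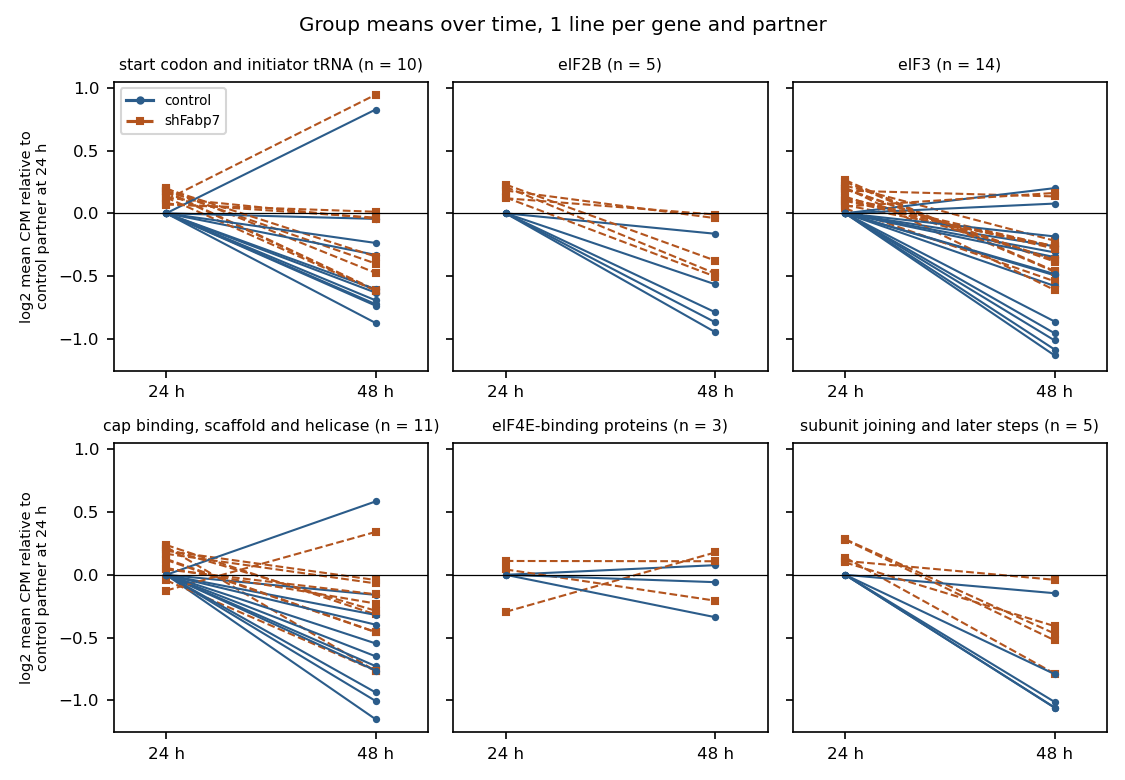
Log2 of the mean CPM of each member relative to the control partner at 24 h (y axis) at 24 and 48 h (x axis), with 1 line per gene and partner and 1 panel per role (solid, control; dashed, shFabp7). Lines run down in most genes, Eif2d and Eif4e3 run up with both partners, and the control lines of the joining factors end lowest as a group.

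Ratios of paralogs, taken per kilobase within a library, show how the make-up of the family differed. Eif4a1 stood above Eif4a2 in each library: the ratio was 4.38, 4.72 and 4.36 with the control partner at 24 h and 5.45, 5.38 and 5.38 with the shFabp7 partner. At 48 h it was 3.64, 3.36 and 3.10 against 4.35, 4.52 and 4.59. The ratio was higher beside shFabp7 cells at both times, and lower at 48 h. Eif4a3 relative to Eif4a2 was 0.785 ± 0.078 against 0.952 ± 0.074 at 24 h and 0.773 ± 0.16 against 1.07 ± 0.01 at 48 h (SD, n = 3), also without overlap.

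Among the scaffolds, Eif4g1 relative to Eif4g3 was 5.46 ± 0.39 against 6.05 ± 0.14 at 24 h, with overlap. At 48 h it was 4.16 ± 0.06 against 5.24 ± 0.07, without overlap, and Eif4g2 relative to Eif4g3 was 3.58 ± 0.29 against 4.18 ± 0.07. Eif4e relative to Eif4e3 dropped from 4.24 ± 0.59 at 24 h to 1.79 ± 0.13 at 48 h with the control partner, and from 5.07 ± 0.76 to 2.42 ± 0.14 with the shFabp7 partner. Eif4e2 relative to Eif4e3 was 1.88 ± 0.16 at 24 h and 1.00 ± 0.05 at 48 h with the control partner. The transcripts of Eif4e and Eif4e2 thus both came closer in level to that of the atypical Eif4e3 with time. Eif4e relative to Eif4e2 overlapped between partners at both times (1.79 ± 0.13 against 1.69 ± 0.06 at 48 h).

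Eif5a exceeded Eif5a2 by 148-fold with the control partner and 168-fold with the shFabp7 partner at 24 h, and by 81.7-fold and 110-fold at 48 h. Eif1ax relative to Eif1a, paralogs whose reads may be shared, was 0.666 ± 0.041 and 0.626 ± 0.025 at 24 h and 0.972 ± 0.067 and 0.995 ± 0.0097 at 48 h. It moved with time and overlapped between partners. Eif3j1 relative to Eif3j2 stayed between 0.946 and 1.34 in the 12 libraries. Eif2s3x, on the X chromosome, was read at 551, 588 and 500.4 CPM and 580.5, 584 and 556 CPM at 24 h and at 425, 482 and 484 CPM and 560.2, 554 and 539 CPM at 48 h, while its Y-linked partner gene Eif2s3y had no count in any library.

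**Figure D5:**
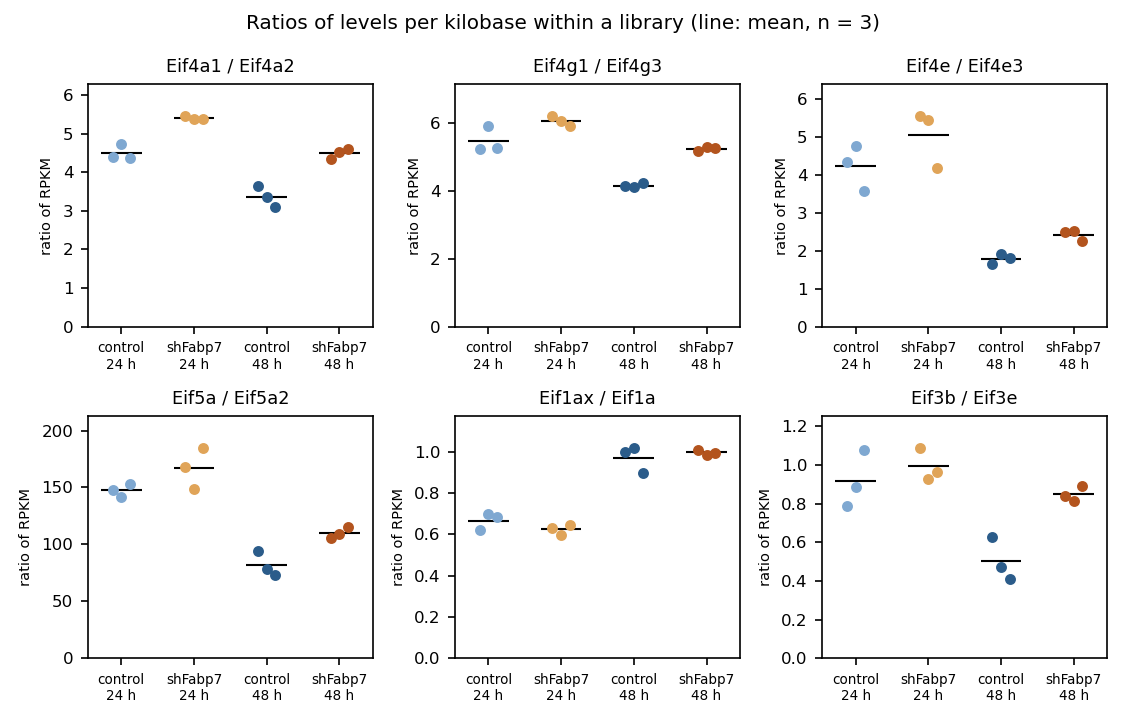
Ratio of 2 members' levels per kilobase within each library (y axis from 0) by group (x axis), with a line at the mean of 3 libraries, for 6 pairs. Eif4a1 over Eif4a2 separates by partner at both times, and Eif1ax over Eif1a separates by time only. Eif4g1 over Eif4g3, Eif4e over Eif4e3 and Eif5a over Eif5a2 separate at 48 h, as does Eif3b over Eif3e. Eif3b and Eif3e are not paralogs. They had the highest and lowest fitted partner change of the eIF3 genes at 48 h, so the separation of their ratio there follows from those values.

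Single libraries stood out for some members. Eif4ebp1 read 28.9, 31.8 and 54.0 CPM with the control partner at 24 h and 31.1, 34.9 and 27.6 CPM with the shFabp7 partner, so control replicate 3 lay far above the rest. Its partner change at 24 h was -0.30 ± 0.21 (adjusted p = 0.446), and without that library it was 0.06 (adjusted p = 0.745). Its change over time with the control partner was 0.08 ± 0.21 (adjusted p = 0.771), and without that library 0.43 (adjusted p = 7.08e-06). With the shFabp7 partner it was 0.47 ± 0.21 (adjusted p = 0.0772) with all libraries and 0.44 (adjusted p = 3.87e-07) without control replicate 3. Eif4ebp2 relative to Eif4ebp1 was 4.33, 3.88 and 2.41 in the same control libraries. At 48 h, control replicate 1 was the lowest of its group for Eif2s1, Eif2s2, Eif3e, Eif3m, Eif4a2, Eif2a and many others. It was the highest for Eif3b, Eif4a3, Eif6, Eif4g1, Eif4g3 and many others, so it stood apart across the family. Over all genes tested, its pairs with replicates 2 and 3 gave a chi-square per degree of freedom of 13.9 and 14.4. Replicates 2 and 3 gave 5.45, and the control pairs at 24 h gave 7.85 to 14. What sets these libraries apart was not tested.

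A list of 41 other genes of translation and its control, all of which were tested, was read in the same way. At 48 h 22 rose and 2 fell with the shFabp7 partner (median 0.18), and at 24 h 8 rose and 2 fell (median 0.09). Upward shares were 19.9% of all genes and 45.9% of genes of like abundance to the members at 48 h, and 6.22% and 15.1% at 24 h. The interaction passed for 6, all upward, where 4.43% of all genes and 14.7% of those of like abundance passed upward. Over time 26 fell and 8 rose with the control partner, and 25 fell and 7 rose with the shFabp7 partner, where 62.3% and 54.6% of the genes of like abundance fell. The genes named next had the smallest adjusted p of the list at 48 h, and they are single genes and not a theme. Pabpc4, a poly(A)-binding protein, read 182, 163 and 158 CPM against 240.4, 253 and 242 CPM (0.55 ± 0.05, adjusted p = 1.72e-09). The termination factors Etf1 and Gspt1, which encode eRF1 and eRF3, rose by 0.42 ± 0.05 and 0.36 ± 0.05 (adjusted p = 6.23e-08 and 1.11e-06). Larp1, which binds messenger RNAs of the translation machinery, rose by 0.44 ± 0.06 (adjusted p = 1.08e-06), and Eef1e1, a scaffold protein of the tRNA synthetase complex, by 0.47 ± 0.07 (adjusted p = 2.31e-06).

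Myc, the E-box-binding activator, read 398, 343 and 329.8 CPM with the control partner at 48 h, and 456, 469.5 and 482 CPM beside shFabp7 cells (0.39 ± 0.06, adjusted p = 1.88e-06). Atf4, the transcription factor that is translated when eIF2B is restrained, did not pass at either time (0.09 ± 0.06, adjusted p = 0.317, and 0.10 ± 0.06, adjusted p = 0.202). The 2 genes of the list that fell at 48 h, named after their values were seen, were Ddit3, a stress-response target of Atf4 (-0.46 ± 0.07, adjusted p = 9.22e-06), and Pdcd4, an inhibitor of eIF4A (-0.25 ± 0.05, adjusted p = 4.53e-04). Ddit3 read 32.6, 30.9 and 33.5 CPM against 22.4, 24.5 and 23.7 CPM, and Pdcd4 read 215, 224 and 222 CPM against 186, 192 and 179 CPM, both without overlap.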

How the data were processed

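Read counts per gene symbol in 12 RNA libraries of mouse spleen T cells were analysed. The deposited values are raw counts, whole numbers that the authors did not normalize. The submitters' processing notes name build GRCm39 and the tools TopHat2 2.0.13, HTSeq 0.6.1p1 and CASAVA 1.8.2. The annotation, the strand mode and the treatment of multiply mapped reads were not given there. Reads of near-identical genes may thus be split or lost (Eif3j1 and Eif3j2, Eif1a and Eif1ax), and pseudogene rows Eif4a-ps4 (334 to 1009 counts) and Eif3s6-ps2 (125 to 204) may hold reads of Eif4a1 and Eif3e.

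Genes were filtered by edgeR's filterByExpr (count minimum 10, total 15), scaled by TMM and fitted with edgeR 4.0.16 (quasi-likelihood, robust, 1 coefficient per group, 12 libraries) in R 4.3.3. P-values were Benjamini-Hochberg adjusted over 16945 genes for each of 5 comparisons, with a threshold of 0.05. All 48 members passed the filter. Rose and fell mean an adjusted p under 0.05. Log2 fold changes are given ± SE, shFabp7 over control or 48 h over 24 h, and levels as TMM-scaled CPM. Levels per kilobase used merged exons of protein-coding transcripts from GENCODE M21 (GRCm38), matched by symbol for 48 of 48. The procedure was tested on simulated data.

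The members and lists were chosen with earlier results of these data known. Values in every library were given for the members called with the 5 largest changes per direction at 48 h, the 3 largest at 24 h and over time with the control partner, the 4 smallest adjusted p of the interaction, and paralog sets. Of the list of other translation genes, the 6 with the smallest adjusted p at 48 h, Myc and Atf4 were named. Alternatives were RLE and upper-quartile scaling, library totals, DESeq2 1.42.0, no filter, a replicate block, a fit on only the groups compared, and leaving out each library.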

Additional observations from a re-analysis of the deposited data

Results flagged for a closer look

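For 10 members the effect of the partner differed between 24 and 48 h by the interaction test (edgeR, adjusted p between 3.54e-04 and 0.0436, 3 libraries per group), and in all 10 the effect was larger at 48 h. On the log2 scale the difference was 0.43 for Eif4g2, 0.45 for Eif4g1 and 0.41 for Eif3b, the 3 that held in all 18 alternatives. It was 0.28 for Eif5b, 0.28 for Eif3c, 0.35 for Eif2b1, 0.38 for Eif3j1, 0.26 for Eif5a, 0.26 for Eif2b5 and 0.26 for Eif4g3, and these calls were lost in 7 (Eif5b), 7 (Eif3c), 8 (Eif2b1), 9 (Eif3j1), 14 (Eif5a), 14 (Eif2b5) and 15 (Eif4g3) of the 18.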

How the results depend on the processing

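The counts of members called at 48 h (34; 31 to 35 over the alternatives) and over time (43 with the control partner, 39 to 45; 41 with the shFabp7 partner, 37 to 45) stayed within 1.5 times the main count. At 24 h (15) the count was 23 under RLE scaling, 30 with DESeq2 and 24 without the low-count filter, 12 under upper-quartile scaling and with library totals, and 11 to 29 when 1 library was left out. For the interaction (10) it was 4 under upper-quartile scaling, and 3 to 18 when 1 library was left out, and some of the members called in alternatives were downward. Of all genes called at 48 h, 63.2% were upward, against 39.9% under upper-quartile scaling and 40.5% with library totals, where members gave 28 up and 3 down. At 24 h these shares were 57.2%, 42.1% and 33.2%, and 71.9% under RLE scaling and 73.1% with DESeq2, where no member was called down in any of these settings.

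With library totals the change over time turned positive for Eif2b2 (0.026, adjusted p = 0.672), Eif3k (0.005, adjusted p = 0.927), Eif4b (0.03, adjusted p = 0.592) and Eif4enif1 (0.13, adjusted p = 0.021) with the control partner, and for Eif2b2 (0.019, adjusted p = 0.76) and Eif4enif1 (0.15, adjusted p = 0.0101) with the shFabp7 partner. This setting leaves out the TMM factors, and the median of all genes moved upward with it, from 0.04 to 0.23 (control partner) and from 0.06 to 0.21 (shFabp7 partner). Replicate numbers did not pair the libraries: over 12 same-numbered pairs the correlation of deviations ran from -0.129 to 0.0392, and 1 library matched its own number best. With the replicate number as a block, 16, 33, 10, 43 and 41 members were called in the 5 comparisons, and Eif4ebp2 at 48 h lost its call. Every member had at least 15.3 CPM on average. The widest SE at 48 h was that of Eif4ebp1 (0.21), where the shared estimate of spread took in its uneven 24 h libraries.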
